A study of Homo sapiens with 21 samples.

Results

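Ribosome biogenesis genes were followed through an EWS/FLI knockdown and rescue experiment in A673, an established line of Ewing sarcoma that carries the EWS/FLI fusion and can go on growing once the fusion is depleted. The set was a list of 40 nucleolar and ribosome assembly genes given by symbol, and the rule for membership used no measured value. The list was, however, chosen with earlier results of these data known. All 40 were found among the 57820 genes of the count table, where 48035 genes had at least 1 count, and all 40 were among the 30549 genes that were abundant enough to be tested. RNA-seq covered 21 libraries in 7 groups of 3. Every group started from the same A673 cells, received a retroviral shRNA on day 1 and either an empty vector or a cDNA in pMSCV-hygro on day 5, and stayed under selection with puromycin at 2 µg/ml and hygromycin B at 400 µg/ml until day 16. The iLuc cells carried an shRNA against luciferase with the empty vector and so kept their own fusion, and their change against iEF is called endo-EF. In iEF, the baseline, the empty vector went with an shRNA that targets EWS/FLI through its 3′ untranslated region. The other 5 groups carried the same iEF shRNA together with a cDNA. WT-EF was rescued with wildtype EWS/FLI, and Δ22 with a fusion that lacks the EWS domain and served as the negative control. In DAF the tyrosines of the N-terminal repeats of the EWS domain were changed to alanine and the later repeats were left intact, so that it is a partial tyrosine mutant. The mut9 construct lost a large internal stretch of the EWS domain, and in DAF-mut9 the repeat tyrosines that mut9 still has were changed as well. The DAF-mut9 columns bear an abbreviated name that was read as this construct from the label of the samples. The labels number the replicates as sets 1 to 3, and the study describes replicate knockdown and rescue experiments, so the p-values measure the spread between repeats in this 1 cell line.

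Ribosomes are assembled in the nucleolus. RNA polymerase I transcribes the long ribosomal RNA precursor, box C/D and box H/ACA small nucleolar ribonucleoproteins (snoRNPs) methylate and pseudouridylate it, and a succession of assembly factors folds and cuts it while the small and large subunits take shape. These genes are widely transcribed and rise in growing cells, and MYC is a well known activator of many of them. The question put to the data was how their messenger RNAs stood when EWS/FLI was depleted, and when the fusion or an altered form of it was put back.

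Library totals ranged from 32.9 M to 46.2 M counts, so that 1 CPM (count per M counts, scaled by the trimmed mean of M-values, TMM) stood for 32 to 45.3 counts, and the 40 genes together took 0.513% to 0.983% of a library. FLI1, whose reads include those of the fusion, was at 20.8, 20 and 21.1 CPM in iEF, 61.3, 60.6 and 89 CPM in iLuc and 21.9, 25.2 and 26.5 CPM in WT-EF, with log2 fold changes of 1.75 (adjusted p = 1.33e-09) in endo-EF and 0.24 (adjusted p = 0.196) in WT-EF. The FLI1 count separated iLuc from iEF but did not by itself show the WT-EF cDNA. Of FLI1 and EWSR1, the 2 genes joined in the fusion, 1 was higher than in iEF in each altered construct. The larger of the 2 changes was 0.57 in mut9, 0.84 in DAF, 0.81 in DAF-mut9 and 1.25 in Δ22. In WT-EF against Δ22, 1 of the 2 was higher (0.27) and 1 lower (-1). Whether construct levels bear on the comparisons between constructs was not tested. Summed CPM over 9 Ewing sarcoma cell markers, which include known EWS/FLI targets, were at 199 to 271 in iEF, 1240 to 1380 in iLuc, 950 to 1060 in WT-EF, 767 to 1230 in mut9, 471 to 538 in DAF, 221 to 252 in DAF-mut9 and 211 to 271 in Δ22. Markers of other cell types (7 of 10 tested) summed to between 41.9 and 143 CPM, most of it from the keratins KRT8 and KRT18. The third iLuc library stood apart for the ribosome biogenesis genes, and calls that were lost without it are named. In bulk RNA, fewer cells of a kind and less RNA per cell cannot be told apart.

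Many ribosome biogenesis genes were higher with the wildtype EWS/FLI cDNA than in the depleted cells. In WT-EF 17 of 40 passed the test as higher than in iEF and 0 as lower (edgeR quasi-likelihood test with the replicate set as a term, Benjamini-Hochberg adjusted p under 0.05 over all genes tested), against 11.4% of all genes higher and 16.9% lower. At an unadjusted p under 0.05 the counts were 22 higher and 1 lower, and DESeq2 called 18 higher and 0 lower. Their median log2 fold change was 0.36 where the median of all genes was -0.002, and 37 of 40 lay above 0. Among the called genes the largest rises were in UTP20, UBTF, POLR1B and NHP2. In endo-EF 12 of 40 passed as higher and 2 as lower, against 18.7% and 22.4% of all genes, with a median of 0.19 against 0.006. Both comparisons share the iEF libraries. Abundant genes passed the test more often in general. Of the 14763 genes at least as abundant as the least abundant of the 40, 17.7% were higher and 25.3% lower in WT-EF, and 27.6% were higher and 31.2% lower in endo-EF. Read against these shares, the 40 genes had a larger share higher in WT-EF (42.5%) and few lower in either comparison. Their share higher in endo-EF (30%) was close to that of the 14763 genes. Those genes reached down to a mean of 0.819 CPM and most of the 40 lay far above that, so the shares are not matched for abundance. How much of the excess in WT-EF goes with abundance was not tested.

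**Figure D1:**
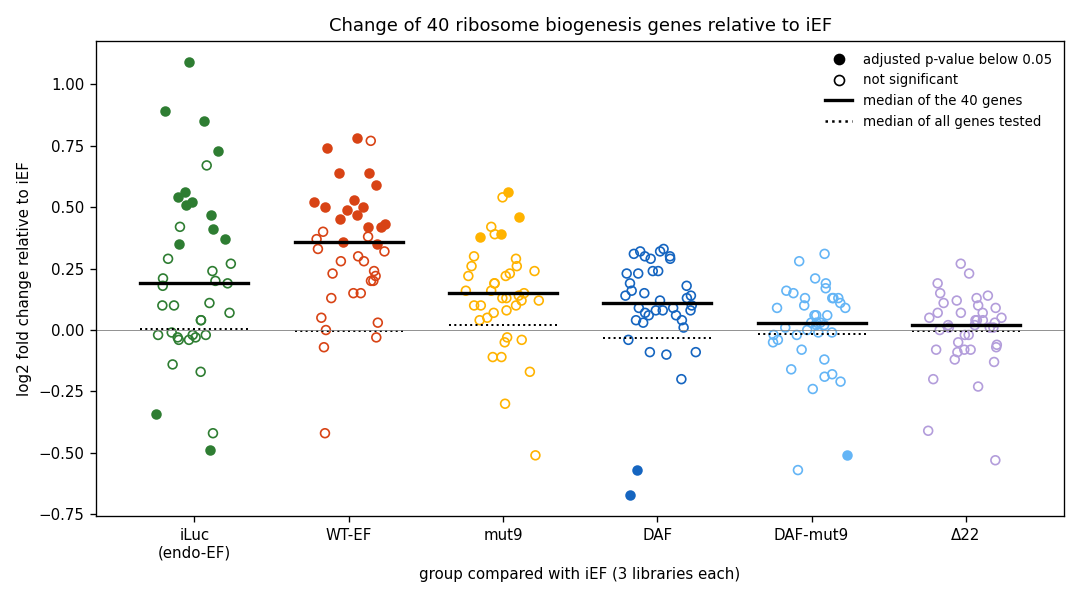
Log2 fold change against iEF (vertical axis) of each of the 40 genes in iLuc (endo-EF), WT-EF, mut9, DAF, DAF-mut9 and Δ22, with filled points for an adjusted p under 0.05, a solid line at the median of the 40 and a dotted line at the median of all genes. The median of the 40 is 0.36 in WT-EF, 0.19 in endo-EF, 0.15 in mut9, 0.11 in DAF, 0.03 in DAF-mut9 and 0.02 in Δ22, and 17 points are filled above 0 in WT-EF against 0 in Δ22.

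All 3 WT-EF libraries lay above all 3 iEF libraries for 27 of 40 genes (67.5%), where 18.3% of all genes did so. For iLuc against iEF this held for 10 of 40 (25%), against 19.6% of all genes. The spread within iLuc was wider, with a median coefficient of variation over the 40 genes of 22.8%, against 10.8% in iEF and 5.37% in WT-EF. The third iLuc library was the highest of the iLuc libraries for 37 of 40 genes, by a median of 0.52 on the log2 scale over the mean of the other two.

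**Figure D2:**
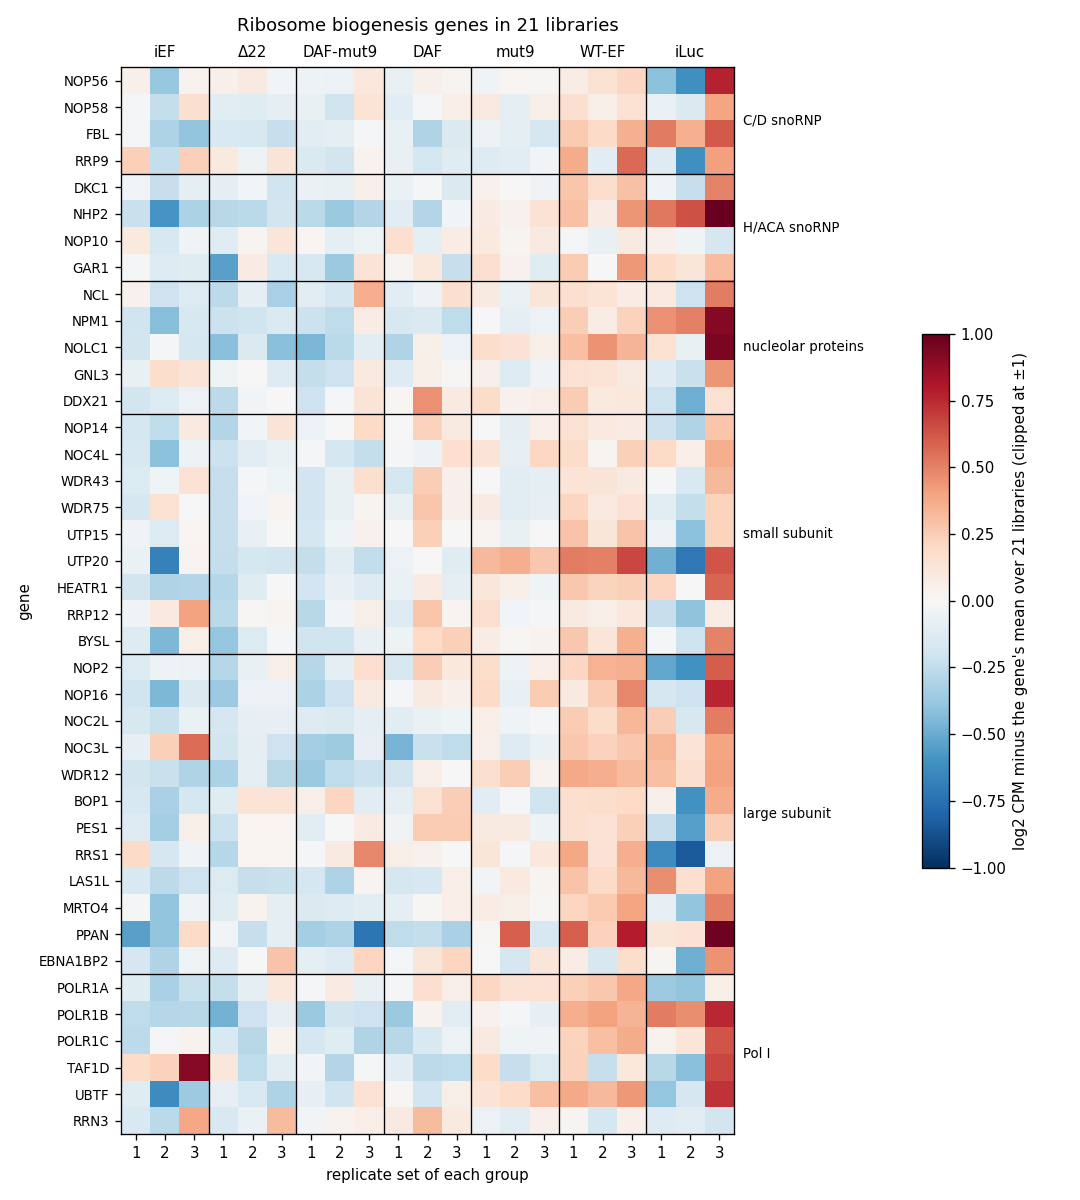
Heat map of the 40 genes (rows, grouped by role) in the 21 libraries (columns, by group and replicate set), coloured by log2 CPM minus the mean of the gene over all libraries and limited to 1 in either direction. The WT-EF columns and the third iLuc column are mostly above the mean of the gene, and the iEF and Δ22 columns are mostly below it.

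RefSeq promoters of 250 bases before to 50 bases after the start site (GRCh38.p14) were matched for 35 of 40 genes. The E-box CACGTG, the motif bound by MYC with MAX, was present in 15 of 35 (42.9%), against 8.77% of 27305 genes. It was in 33.3% of 90 other ribosome biogenesis genes and 6.35% of 63 ribosomal protein genes. The ETS core CCGGAAGT, read on both strands and so also as ACTTCCGG, was present in 11 of 35 (31.4%), against 4.95% of genes. It was in 18.9% of the 90 other ribosome biogenesis genes and 14.3% of the 63 ribosomal protein genes. GGAAGGAA, a short run of the GGAA repeat that EWS/FLI binds in longer arrays, was present in 1 of 35 (2.86%) against 4.5%. Motifs were searched on both strands and a match says only that the letters are there. The windows below come from genes that passed the test in WT-EF, or for GNL3 and PES1 from genes that passed in no comparison, and show the motif in capitals with the bases around it, read 5′ to 3′ along the gene. The E-box of FBL, UTP20, BYSL and MRTO4, which were all higher in WT-EF, and of the uncalled GNL3 and PES1 is shown first.
FBL, chr19:39846356-39846385, minus strand: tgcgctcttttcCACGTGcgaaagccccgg
UTP20, chr12:101280083-101280112, plus strand: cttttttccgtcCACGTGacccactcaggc
BYSL, chr6:41921515-41921544, plus strand: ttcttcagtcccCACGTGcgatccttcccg
MRTO4, chr1:19251807-19251836, plus strand: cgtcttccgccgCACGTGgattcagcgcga
GNL3, chr3:52686026-52686055, plus strand: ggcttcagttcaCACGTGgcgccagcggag
PES1, chr22:30591880-30591909, minus strand: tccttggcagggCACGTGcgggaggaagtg
The ETS core stands in capitals in the windows of 3 genes that were higher in WT-EF and in endo-EF, for NOC2L in endo-EF only with the third iLuc library.
POLR1B, chr2:112542411-112542440, plus strand: ctgcggccactACTTCCGGcgtgtaccgag
LAS1L, chrX:65534912-65534941, minus strand: gtgaaaagaacACTTCCGGccggtgagttt
NOC2L, chr1:959255-959284, minus strand: gcattctggggCCGGAAGTggggtgcacgc
Genes with the E-box were not the ones that passed most often. In WT-EF 4 of 15 genes with it and 12 of 20 without it were called higher, with median log2 fold changes of 0.28 and 0.44, and in endo-EF 1 of 15 and 10 of 20 were called higher. With the ETS core 3 of 11 genes were called higher in WT-EF, and without it 13 of 24, with medians of 0.33 and 0.37. Other comparisons divided in either direction. In mut9 0 of 11 with it and 4 of 24 without it were higher than in iEF, with medians of 0.16 and 0.17. In WT-EF against iLuc 0 of 11 with it were called, and of 24 without it 2 were higher and 2 lower. In DAF-mut9 0 of 11 and 2 of 24 were lower than in mut9. In endo-EF 4 of 11 with it and 7 of 24 without it were higher, with medians of 0.29 and 0.14. Against Δ22, 5 of 11 and 10 of 24 were higher in WT-EF. In DAF 6 of 11 and 5 of 24 were lower than in WT-EF. These splits are descriptions and were not tested.

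Among the 4 box C/D snoRNP genes, which build the particles that guide methylation of ribosomal RNA, FBL passed in both comparisons and NOP56, NOP58 and RRP9 in neither. FBL (ENSG00000105202, chr19:40325098-40337019, minus strand, in hg19 as for all gene positions here), the fibrillarin methyltransferase itself, was at 30.3, 24.6 and 23.2 CPM in the iEF libraries of sets 1 to 3, 43.6, 39 and 46.7 CPM in iLuc and 36.5, 34.9 and 38.9 CPM in WT-EF. The 3 iEF libraries were below all of iLuc and all of WT-EF. Its log2 fold change was 0.73 ± 0.11 (SE, adjusted p = 1.14e-05) in endo-EF and 0.5 ± 0.11 (SE, adjusted p = 0.00124) in WT-EF. NOP56 (ENSG00000101361, chr20:2633239-2639039, plus strand), a scaffold protein of the same particle, was at 218, 162 and 216 CPM in iEF, 159, 138 and 360 CPM in iLuc and 222, 234 and 243 CPM in WT-EF. The iLuc libraries ran from the lowest value of the 21 to the highest, with the third library alone at the top. Its endo-EF log2 fold change was 0.1 ± 0.2 (SE, adjusted p = 0.75), and without the third iLuc library it was -0.39 (adjusted p = 0.01), so that the direction turned and the lower value passed the test. In WT-EF it was 0.24 ± 0.2 (SE, adjusted p = 0.422).

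The 4 box H/ACA genes, whose particles guide pseudouridylation and which also hold telomerase RNA, gave 2 calls in WT-EF. NHP2 (ENSG00000145912, chr5:177576464-177580895, minus strand), a core RNA-binding protein of the particle, was at 10.3, 8.01 and 9.67 CPM in iEF, 17.3, 18.7 and 23.8 CPM in iLuc and 14.7, 12.7 and 16.3 CPM in WT-EF. The 3 groups did not overlap, and WT-EF lay between the other groups. NHP2 had the largest endo-EF rise of the 40 genes, 1.09 ± 0.13 (SE, adjusted p = 4.54e-07), and rose by 0.64 ± 0.13 (SE, adjusted p = 0.000504) in WT-EF. DKC1 (ENSG00000130826, chrX:153991017-154005964, plus strand), the dyskerin pseudouridine synthase, was at 151, 131 and 144 CPM in iEF, 149, 131 and 217 CPM in iLuc and 186, 173 and 188 CPM in WT-EF. WT-EF stood above every iEF library, with a log2 change of 0.36 ± 0.13 (SE, adjusted p = 0.0373), whereas 2 of the iLuc libraries lay within the iEF range and the endo-EF value was 0.21 ± 0.13 (SE, adjusted p = 0.199). NOP10 and GAR1, the remaining core proteins, passed in no comparison.

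**Figure D3:**
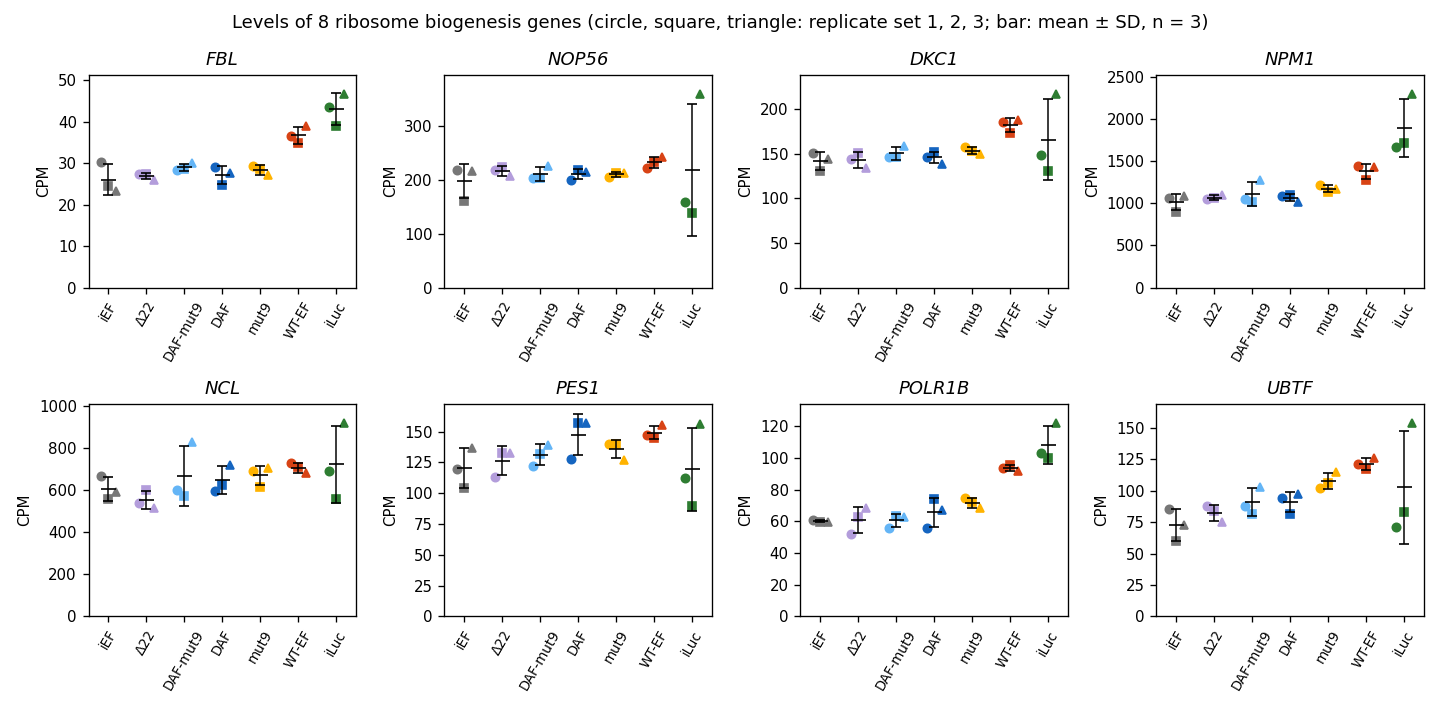
CPM (vertical axes from 0) by group for FBL, NOP56, DKC1, NPM1, NCL, PES1, POLR1B and UBTF, with circles, squares and triangles for replicate sets 1, 2 and 3 and bars for the mean and SD (n = 3). FBL, NPM1 and POLR1B are above every iEF library in all iLuc and all WT-EF libraries, and the triangle of iLuc is far above the other iLuc points for NOP56, DKC1, PES1 and UBTF.

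NPM1 and NOLC1 were the called genes among 5 nucleolar chaperones and phosphoproteins, in endo-EF and in WT-EF alike. NPM1 (ENSG00000181163, chr5:170814120-170838814, plus strand), nucleophosmin, an abundant nucleolar histone and ribosomal protein chaperone, was at 1060, 904 and 1090 CPM in iEF, 1670, 1720 and 2300 CPM in iLuc and 1440, 1280 and 1430 CPM in WT-EF. It had the highest level per length of the 40 genes, 123 CPM per kilobase of exon in iEF and 228 in iLuc. The 3 groups did not overlap, and the log2 fold changes were 0.89 ± 0.11 (SE, adjusted p = 9.11e-07) in endo-EF and 0.45 ± 0.11 (SE, adjusted p = 0.00334) in WT-EF. NOLC1, a phosphoprotein that binds snoRNPs, was at 241, 269 and 242 CPM in iEF, 304, 259 and 524 CPM in iLuc and 336, 374 and 346 CPM in WT-EF. Its endo-EF change of 0.51 ± 0.17 (SE, adjusted p = 0.0174) rested on the third iLuc library and was 0.17 (adjusted p = 0.282) without it, while the WT-EF change was 0.49 ± 0.17 (SE, adjusted p = 0.0325) with no overlap. NCL (ENSG00000115053, chr2:232318242-232348352, minus strand), nucleolin, which binds the ribosomal RNA precursor, was at 669, 561 and 590 CPM in iEF, 692, 560 and 921 CPM in iLuc and 728, 711 and 682 CPM in WT-EF. All WT-EF values were above all iEF values, but the log2 change of 0.22 ± 0.14 (SE, adjusted p = 0.262) did not pass, and nor did 0.24 ± 0.14 (SE, adjusted p = 0.187) in endo-EF. GNL3, the nucleostemin GTPase, and the helicase DDX21 passed in no comparison.

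Of the 9 genes for the small subunit, 4 were higher in WT-EF (NOC4L, UTP20, HEATR1 and BYSL), and in endo-EF NOC4L and HEATR1 were higher and RRP12 lower. UTP20 (ENSG00000120800, chr12:101673883-101780396, plus strand), a large component of the early small subunit particle, was at 152, 99.4 and 162 CPM in iEF, 114, 97.1 and 246 CPM in iLuc and 227, 226 and 253 CPM in WT-EF. WT-EF lay above iEF and had the largest WT-EF rise of the 40 genes, 0.78 ± 0.21 (SE, adjusted p = 0.00752). In iLuc the first library sat within the iEF range, the second under it and the third within the WT-EF range, and the endo-EF change was 0.11 ± 0.21 (SE, adjusted p = 0.72). HEATR1, which also acts in polymerase I transcription, changed by 0.54 ± 0.12 (SE, adjusted p = 0.00104) in endo-EF and 0.5 ± 0.12 (SE, adjusted p = 0.00313) in WT-EF. RRP12 (ENSG00000052749, chr10:99116115-99185833, minus strand), a HEAT repeat protein needed for the maturation and export of subunits, went the other way in endo-EF, from 88.6, 96.7 and 120 CPM in iEF to 77.3, 68.4 and 95.6 CPM in iLuc, a change of -0.34 ± 0.13 (SE, adjusted p = 0.0419). In WT-EF it was at 96.2, 94.6 and 97.2 CPM, a change of -0.07 ± 0.13 (SE, adjusted p = 0.734). Each iLuc library was below the iEF library of its set, although the ranges overlapped. The endo-EF call of RRP12 was lost under 10 of 14 other settings, among them without the second iEF, the third iEF, the first iLuc or the second iLuc library, and its change ran from -0.44 to -0.17 over them. BYSL and NOC4L rose in WT-EF by 0.42 (adjusted p = 0.0304) and 0.35 (adjusted p = 0.0439), and NOP14, WDR43, WDR75 and UTP15 passed in no comparison.

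The 12 large subunit genes gave 5 calls in WT-EF, all higher (NOP16, NOC2L, WDR12, LAS1L and MRTO4). WDR12 (ENSG00000138442, chr2:203738984-203879521, minus strand), which with PES1 and BOP1 forms a complex needed for large subunit processing, was at 98.9, 96.1 and 91.2 CPM in iEF, 138, 125 and 148 CPM in iLuc and 146, 144 and 140 CPM in WT-EF. Every iLuc and every WT-EF library was above every iEF library, with log2 fold changes of 0.52 ± 0.1 (SE, adjusted p = 0.000215) and 0.59 ± 0.1 (SE, adjusted p = 0.000111). PES1 (ENSG00000100029, chr22:30972612-31003070, minus strand) was at 120, 104 and 137 CPM in iEF, 112, 89.7 and 156 CPM in iLuc and 147, 145 and 155 CPM in WT-EF. The PES1 changes of -0.02 ± 0.14 (SE, adjusted p = 0.929) and 0.32 ± 0.14 (SE, adjusted p = 0.0934) did not pass, although each WT-EF library was above each iEF library. BOP1 passed in no comparison either. LAS1L, the endonuclease subunit that cuts the internal spacer of the precursor, rose by 0.56 ± 0.1 (SE, adjusted p = 0.000139) in endo-EF and 0.47 ± 0.1 (SE, adjusted p = 0.00116) in WT-EF. NOC2L rose by 0.37 ± 0.11 (SE, adjusted p = 0.0102) in endo-EF, which was 0.22 (adjusted p = 0.0929) without the third iLuc library, and by 0.42 ± 0.11 (SE, adjusted p = 0.00694) in WT-EF.

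RRS1 (ENSG00000179041, chr8:67341249-67342968, plus strand), a factor that helps bring the smallest ribosomal RNA into the large subunit, was lower in iLuc. It was at 16.3, 12.7 and 13.9 CPM in iEF, 9.25, 8 and 13.7 CPM in iLuc and 18.7, 15.8 and 18.4 CPM in WT-EF, with a log2 change of -0.49 ± 0.16 (SE, adjusted p = 0.0169) in endo-EF and 0.3 ± 0.16 (SE, adjusted p = 0.171) in WT-EF. The first and second iLuc libraries were under every iEF library and the third was within their range. The endo-EF call of RRS1 was lost under 7 of 14 other settings, among them without the first iEF, the first iLuc or the second iLuc library, and its change ran from -0.69 to -0.3. NOC3L, a partner of NOC2L, passed in neither comparison. Its values of 117, 146 and 182 CPM in iEF, 156, 135 and 163 CPM in iLuc and 149, 145 and 149 CPM in WT-EF overlapped. PPAN was the least abundant of the 40 genes per length, at 0.233 CPM per kilobase in iEF, and 1422 of its 2888 exon bases are shared with P2RY11 and the PPAN-P2RY11 readthrough gene. It was at 0.537, 0.594 and 0.892 CPM in iEF, 0.848, 0.862 and 1.53 CPM in iLuc and 1.18, 0.919 and 1.35 CPM in WT-EF. The WT-EF libraries were above iEF, and the log2 change of 0.77 ± 0.29 (SE, adjusted p = 0.0517) did not pass.

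RNA polymerase I and its factors gave 3 of 6 genes higher in each comparison, POLR1B and UBTF in both, POLR1C in endo-EF and POLR1A in WT-EF. POLR1B (ENSG00000125630, chr2:113299492-113337395, plus strand), the second largest subunit of the enzyme, was at 60.6, 59.5 and 59.6 CPM in iEF, 103, 99.6 and 122 CPM in iLuc and 93.3, 95.7 and 91.7 CPM in WT-EF. The iEF libraries were close to each other and both other groups lay wholly above them. The log2 fold changes were 0.85 ± 0.11 (SE, adjusted p = 2.22e-06) in endo-EF and 0.64 ± 0.11 (SE, adjusted p = 0.000123) in WT-EF. POLR1A (ENSG00000068654, chr2:86247339-86333278, minus strand), the largest subunit, was at 128, 111 and 119 CPM in iEF, 108, 106 and 145 CPM in iLuc and 164, 168 and 182 CPM in WT-EF. Here WT-EF was above both other groups. The change was 0.52 ± 0.11 (SE, adjusted p = 0.00141) in WT-EF and -0.01 ± 0.11 (SE, adjusted p = 0.972) in endo-EF.

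UBTF (ENSG00000108312, chr17:42282401-42298994, minus strand), the upstream binding factor that keeps ribosomal DNA open, was at 85.7, 60.2 and 72.7 CPM in iEF, 71.2, 83 and 154 CPM in iLuc and 121, 117 and 126 CPM in WT-EF. WT-EF was above iEF in every library and the change was 0.74 ± 0.18 (SE, adjusted p = 0.00292). The endo-EF change of 0.47 ± 0.18 (SE, adjusted p = 0.0382) fell to 0.12 (adjusted p = 0.529) without the third iLuc library. TAF1D, a subunit of the promoter selectivity factor of polymerase I, was at 150, 155 and 248 CPM in iEF, 109, 98.7 and 210 CPM in iLuc and 155, 113 and 142 CPM in WT-EF, where the third library of iEF and of iLuc was the highest of its group. Its log2 fold changes were -0.42 ± 0.19 (SE, adjusted p = 0.0745) and -0.42 ± 0.19 (SE, adjusted p = 0.1), and 946 of its 7970 exon bases are shared with small RNAs hosted in the gene. RRN3, the polymerase I initiation factor, passed in no comparison.

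The altered constructs were set first against iEF. With Δ22, 0 of 40 genes were higher and 0 lower in edgeR, against 0.881% and 1.79% of all genes, while 0 were higher and 2 lower at an unadjusted p under 0.05 and DESeq2 called 0 higher and 1 lower. The median log2 fold change of the 40 was 0.02. With mut9, NHP2, WDR12, POLR1A and UBTF were higher and 0 lower, against 6.22% and 8.33% of all genes, with 10 higher and 2 lower at an unadjusted p under 0.05 and 4 higher and 0 lower in DESeq2. Of the 14763 genes at least as abundant as the least abundant of the 40, 9.4% were higher and 13% lower in mut9. The share of the 40 called higher (10%) was close to that of the 14763 genes. The median of the 40 was 0.15, and the mut9 libraries lay above all iEF libraries for 15 genes (37.5%), against 13.4% of all genes. UBTF was at 102, 106 and 115 CPM in mut9, a change of 0.56 ± 0.17 (SE, adjusted p = 0.0338), and NHP2 at 12.7, 12.4 and 13.3 CPM, a change of 0.46 ± 0.13 (SE, adjusted p = 0.0154). Both genes were above every iEF library there. WDR12, at 125, 133 and 115 CPM, and POLR1A, with changes of 0.38 (adjusted p = 0.0112) and 0.39 (adjusted p = 0.0218), did the same.

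With DAF, 0 of 40 genes were higher and 2 lower than in iEF, against 3.41% and 4.02% of all genes, with 5 higher at an unadjusted p under 0.05 and 0 higher and 2 lower in DESeq2, and with 1 called when the replicate set was left out of the model as a block. The median was 0.11 and 7 genes (17.5%) had all DAF libraries above iEF, against 9.58%. The lower genes were NOC3L, at 89.5, 106 and 104 CPM in DAF and a change of -0.57 ± 0.12 (SE, adjusted p = 0.00527), and TAF1D, at 122, 110 and 111 CPM and a change of -0.67 ± 0.19 (SE, adjusted p = 0.0317). All DAF libraries were below all iEF libraries for both. With DAF-mut9, 0 were higher and NOC3L was lower, against 1.26% and 2.14% of all genes, with 0 higher and 2 lower at an unadjusted p under 0.05 and 0 higher and 1 lower in DESeq2. NOC3L was at 97.9, 96.9 and 117 CPM there, a change of -0.51 ± 0.12 (SE, adjusted p = 0.0221), and the median of the 40 genes was 0.03. The third iEF library held the highest NOC3L and TAF1D values of the 21 libraries, and without it neither DAF nor DAF-mut9 gave a call among the 40.

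WT-EF was then set against each altered construct directly. Against Δ22, which carries the same shRNA and vector backbone but no EWS domain, 16 of 40 were higher in WT-EF and 0 lower (0 lower also at an unadjusted p under 0.05 and in DESeq2), where 10.7% and 14.5% of all genes were. The WT-EF libraries lay above all Δ22 libraries for 32 genes (80%), against 18.9% of all genes, and the median difference was 0.36. UTP20 was at 135, 141 and 140 CPM in Δ22 and 0.76 ± 0.21 (SE, adjusted p = 0.0102) higher on the log2 scale in WT-EF. NOLC1 was at 205, 247 and 205 CPM in Δ22, with a difference of 0.68 ± 0.17 (SE, adjusted p = 0.00397). NPM1, at 1050, 1060 and 1100 CPM in Δ22, differed by 0.37 ± 0.11 (SE, adjusted p = 0.0135), and POLR1B, at 52.1, 62.6 and 68.2 CPM, by 0.62 ± 0.11 (SE, adjusted p = 0.000194). All 4 had no Δ22 library within the WT-EF range.

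Against DAF, 12 of 40 genes were lower in DAF than in WT-EF and 0 higher, where 10.6% and 14.3% of all genes were, and 0 were higher at an unadjusted p under 0.05 or in DESeq2. The median difference was -0.24. All DAF libraries were below all WT-EF libraries for 20 genes (50%), against 19.6% of all genes. FBL was at 29, 24.8 and 27.6 CPM in DAF, a difference of -0.44 ± 0.11 (SE, adjusted p = 0.00428), and POLR1B at 56, 74 and 67.2 CPM, a difference of -0.52 ± 0.11 (SE, adjusted p = 0.00133). The other lower genes were NHP2, NPM1, NOLC1, UTP20, NOC2L, NOC3L, WDR12, LAS1L, PPAN and POLR1C. PPAN had the largest difference, -0.81 ± 0.29 (SE, adjusted p = 0.0477), at 0.655, 0.663 and 0.625 CPM in DAF, followed by UTP20 with -0.62 ± 0.21 (SE, adjusted p = 0.0352) at a mean of 152 ± 6.57 CPM (SD, n = 3). DAF values of both genes were below every WT-EF library.

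Between mut9 and WT-EF the count of calls turned on the model. FBL and POLR1B were lower in mut9 than in WT-EF and 0 genes were higher (0 also at an unadjusted p under 0.05 and in DESeq2), against 1.2% lower and 4.95% higher of all genes. FBL was at 29.4, 28.6 and 27.2 CPM in mut9, a difference of -0.37 ± 0.11 (SE, adjusted p = 0.041). POLR1B was at 74.7, 71.9 and 68.4 CPM, a difference of -0.38 ± 0.11 (SE, adjusted p = 0.0397). For both, each mut9 library was below each WT-EF library, as held for 26 of 40 genes (65%) against 10.3% of all genes. The median difference of the 40 was -0.2 where that of all genes was 0.049. Neither FBL nor POLR1B kept its call under every setting tried, and 0 genes were called without the replicate block. Fitted on the compared groups alone, 19 genes were lower in mut9 and 16 in DAF than in WT-EF. Of all genes in those fits, 2050 of 30842 were lower in mut9 and 3810 of 30371 in DAF. DAF-mut9 against mut9, which asks what the tyrosine change adds to the deletion, gave NHP2 and WDR12 lower and 0 higher (0 also at an unadjusted p under 0.05 and in DESeq2), against 4.68% and 5.15% of all genes. NHP2 was at 10, 9.3 and 9.8 CPM in DAF-mut9, a difference of -0.4 ± 0.13 (SE, adjusted p = 0.0474), and WDR12 at 86.8, 93.9 and 96.7 CPM, a difference of -0.43 ± 0.1 (SE, adjusted p = 0.0066). Without the replicate block 1 gene was called. All DAF-mut9 libraries were below all mut9 libraries for both genes and for 13 of 40 in all (32.5%), against 15.6% of all genes.

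WT-EF and iLuc, which both hold a wildtype fusion, were compared to see how far the rescue reached the level of the cells' own fusion. Of 40 genes 3 were higher in WT-EF and 2 lower, against 9.78% and 8.52% of all genes. NHP2 and NPM1 were lower in WT-EF, with log2 differences of -0.45 ± 0.12 (SE, adjusted p = 0.0135) and -0.45 ± 0.11 (SE, adjusted p = 0.00531), and RRS1, POLR1A and UTP20 were higher, by 0.79 ± 0.16 (SE, adjusted p = 0.00114), 0.52 ± 0.11 (SE, adjusted p = 0.00216) and 0.67 ± 0.21 (SE, adjusted p = 0.0302). RRS1 and POLR1A had no overlap between the groups, while for UTP20 the third iLuc library was within the WT-EF range. Leaving out that library altered this comparison more than leaving out any other. Without it 12 genes were higher in WT-EF and NPM1 alone was lower (NHP2 at -0.35 (adjusted p = 0.0569)), against 10.9% and 10.8% of all genes, and the median rose from 0.09 to 0.3. NOP56, NOP2 and UBTF were among the added genes, at 0.63 (adjusted p = 0.000501), 0.82 (adjusted p = 8.42e-05) and 0.62 (adjusted p = 0.00184).

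The endo-EF calls moved with the same library. Without it 8 genes were higher (FBL, NHP2, NPM1, NOC4L, HEATR1, WDR12, LAS1L and POLR1B) and 6 lower (RRP12, RRS1, NOP56, RRP9, NOP2 and TAF1D), against 18.3% and 21% of all genes, and the median of the 40 genes was 0.005. The calls of NOLC1, NOC2L, POLR1C and UBTF were lost. NOP2, an RNA methyltransferase that shares 2550 of its 4687 exon bases with a gene on the same strand, fell by 0.44 (adjusted p = 0.00797), and TAF1D fell by 0.78 (adjusted p = 0.000557). The summed level of the 40 genes was 6480, 5880 and 9040 CPM in iLuc, and the share of counts on mitochondrial messenger RNAs was 0.702%, 0.699% and 1.05%, highest in the third library for both. The summed level of 78 ribosomal protein genes was not apart there, at 30000, 27600 and 29900 CPM. What set this library apart was not tested. Group means of the summed level of the 40 genes were 5750 ± 395 CPM (SD, n = 3) in iEF, 7100 ± 206 in WT-EF, 7130 ± 1680 in iLuc, 6330 ± 226 in mut9, 6150 ± 385 in DAF, 5890 ± 590 in DAF-mut9 and 5670 ± 251 in Δ22. WT-EF had the highest mean of the 7 groups for 24 of 40 genes and iEF the lowest for 18.

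**Figure D4:**
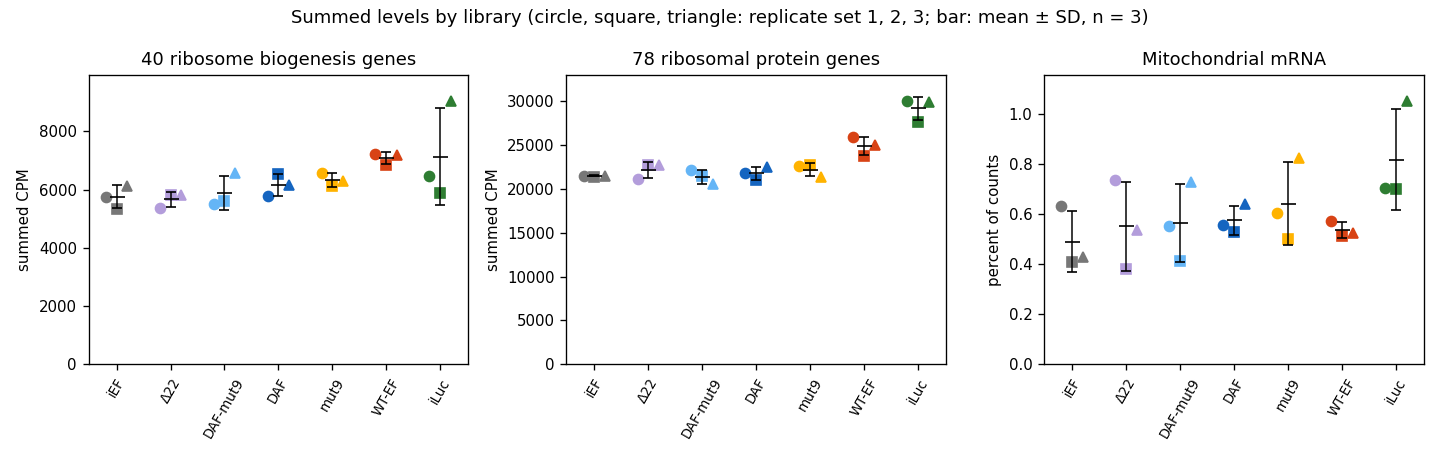
Summed CPM of the 40 ribosome biogenesis genes, summed CPM of 78 cytoplasmic ribosomal protein genes and the percent of counts on mitochondrial messenger RNAs, by group, with circles, squares and triangles for replicate sets 1, 2 and 3. The third iLuc library is at 9040 CPM in the first panel and at 1.05% in the last, above the other iLuc libraries in both, but within the iLuc range in the ribosomal protein panel.

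The scaling bears on how the calls divide. Scaled by library totals alone, without the TMM step, endo-EF gave 20 genes higher and 0 lower and WT-EF gave 32 higher. Of all 30549 genes tested, 7473 were then higher and 5803 lower in endo-EF, and 5988 higher and 3977 lower in WT-EF. With TMM these were 5727, 6833, 3470 and 5165. The median of all genes moved to 0.171 and 0.19. Set against that shift, the median of the 40 genes stood 0.18 above all genes in endo-EF and 0.36 above in WT-EF, as with TMM. With the authors' ComBat-adjusted counts and limma, WT-EF gave 32 genes higher, where 5876 of 26325 genes were higher and the median of all genes was 0.148. Setting aside the further 1.5-fold requirement, the WT-EF calls of DKC1, NOLC1, NOC4L, UTP20, BYSL, NOP16 and MRTO4 and the endo-EF calls of NOLC1, NOC4L, NOC2L, POLR1C, UBTF, RRP12 and RRS1 were lost under at least 1 other setting or with 1 library left out.

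A longer list of ribosome assembly genes was counted in the same way. Of 106 further ribosome biogenesis genes tested, 42 were higher and 2 lower in WT-EF with a median log2 change of 0.29, and 36 were higher and 7 lower in endo-EF with a median of 0.2. Of all genes, 11.4% were higher and 16.9% lower in WT-EF, and 18.7% and 22.4% in endo-EF. In DAF against WT-EF 1 of the 106 was higher and 26 lower, against 14.3% and 10.6% of all genes. EXOSC7, a subunit of the RNA exosome that trims ribosomal RNA, had a mean of 12.4 CPM in iEF, 34.1 in iLuc and 23.7 in WT-EF, with changes of 1.48 ± 0.15 (SE, adjusted p = 9e-08) and 0.96 ± 0.15 (SE, adjusted p = 5.15e-05). NMD3, the export adaptor of the large subunit, was lower in both, with changes of -0.7 ± 0.12 (SE, adjusted p = 8.67e-05) and -0.4 ± 0.12 (SE, adjusted p = 0.017). Without the third iLuc library 25 of these genes were higher and 14 lower in endo-EF. Of 10 further RNA polymerase I genes, 3 were higher and 1 lower in WT-EF and 2 higher and 1 lower in endo-EF, shares near or under the 18.7% and 22.4% of all genes in endo-EF, and without the third iLuc library 1 was higher and 1 lower there. TAF1B rose by 0.56 (adjusted p = 0.000163) in endo-EF and 0.4 (adjusted p = 0.00628) in WT-EF, and TAF1A, another subunit of the same selectivity factor, had values of -0.36 (adjusted p = 0.0306) and -0.44 (adjusted p = 0.0149).

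Cytoplasmic ribosomal protein genes, the clients of this machinery, rose with the cells' own fusion more often than with the rescue. In endo-EF 56 of 78 were higher with a median log2 change of 0.38, against 18.7% of all genes. Without the third iLuc library 45 were higher and 1 lower, against 18.3% and 21% of all genes. In WT-EF 15 of 78 were higher with a median of 0.2, against 11.4% of all genes. In the direct comparison of WT-EF with iLuc 22 of 78 were lower in WT-EF, against 8.52% of all genes. Among 12 proliferation genes 9 were higher in endo-EF and 4 in WT-EF, against 18.7% and 11.4% of all genes. In DAF 5 were lower than in WT-EF, against 10.6% of all genes. Without the third iLuc library 4 were higher in endo-EF, and the median log2 change was 0.27 in place of 0.5. MCM6, a subunit of the replicative helicase, rose by 0.93 (adjusted p = 4.8e-05) in endo-EF and 0.68 (adjusted p = 0.00182) in WT-EF. Proliferation genes thus had calls in the same direction as most of those among the 40 in endo-EF, WT-EF and DAF against WT-EF. Elsewhere the lists parted. In DAF against iEF the median was -0.13 for the proliferation genes and 0.11 for the 40. In mut9 0 of 12 and 4 of 40 were higher than in iEF, against 6.22% of all genes. Without the third iLuc library the endo-EF median of the 40 was 0.005. The part of the proliferation genes in the result was not tested.

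MYC itself was not among the genes that passed as higher. It was at 120, 183 and 230 CPM in iEF, 167, 177 and 134 CPM in iLuc and 125, 145 and 109 CPM in WT-EF, with changes of -0.14 ± 0.18 (SE, adjusted p = 0.578) in endo-EF and -0.48 ± 0.18 (SE, adjusted p = 0.052) in WT-EF. In Δ22 and DAF-mut9 it was lower than in iEF, with changes of -0.81 (adjusted p = 0.0187) and -0.65 (adjusted p = 0.0493). Only messenger RNA was measured, and the part of MYC in the levels of the 40 genes was not tested. MAX, the partner of MYC, was at 57.1, 51.3 and 65.2 CPM in iEF, 38.1, 38.5 and 44.6 CPM in iLuc and 48, 41.1 and 42.6 CPM in WT-EF and fell, with changes of -0.52 ± 0.11 (SE, adjusted p = 0.000705) and -0.4 ± 0.11 (SE, adjusted p = 0.0101). MYCN was near the limit of detection, at 0.117 to 2.11 CPM in the 21 libraries (5 to 86 counts), and was higher in endo-EF, WT-EF and mut9 by 2.75 (adjusted p = 4.05e-05), 2.6 (adjusted p = 0.000145) and 2.92 (adjusted p = 8.93e-05). Of the 12 genes of the MYC network 4 were higher and 4 lower in endo-EF, against 18.7% and 22.4% of all genes. In WT-EF 2 were higher and 4 lower, against 11.4% and 16.9%. Without the third iLuc library 5 were higher and 4 lower in endo-EF. The repressors MXD4 and MXD1, which compete with MYC for MAX, fell in both comparisons, MXD4 with changes of -1.43 (adjusted p = 2.32e-05) and -0.66 (adjusted p = 0.027) and MXD1 with changes of -1.34 (adjusted p = 0.000993) and -1.19 (adjusted p = 0.00392).

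**Figure D5:**
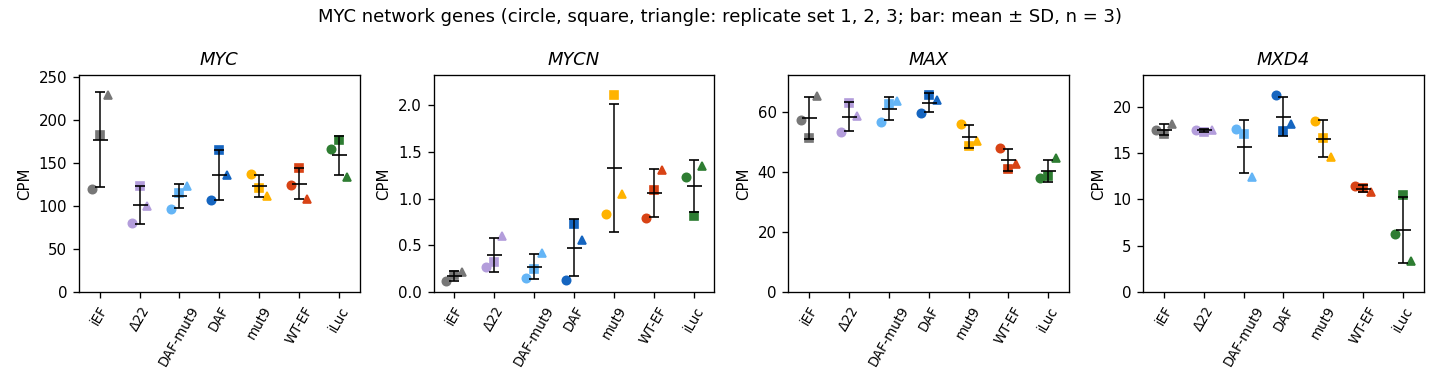
CPM of MYC, MYCN, MAX and MXD4 by group (vertical axes from 0), with circles, squares and triangles for replicate sets 1, 2 and 3 and bars for the mean and SD (n = 3). MYC in WT-EF lies between 109 and 145 CPM and in iEF between 120 and 230 CPM, MYCN reaches at most 2.11 CPM, and MXD4 is lower in iLuc and WT-EF than in iEF.

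With all libraries, 17 of the 40 genes passed in none of the 11 comparisons, namely NOP56, NOP58, RRP9, NOP10, GAR1, NCL, GNL3, DDX21, NOP14, WDR43, WDR75, UTP15, NOP2, BOP1, PES1, EBNA1BP2 and RRN3. Exons of 23 of the 40 genes share bases with another gene in GENCODE release 44 mapped to hg19, 17 of them with one on the opposite strand, and reads there could belong to either gene since the strand setting of the counting is not given in the sources used here. NHP2 shares 414 of 1476 exon bases with RMND5B and HEATR1 2095 of 9061 with LGALS8, both on the opposite strand. The 17 genes with no shared exon had 8 higher and 0 lower in WT-EF with a median of 0.35, against 11.4% and 16.9% of all genes. In endo-EF 4 of 17 were higher and 0 lower with a median of 0.11, against 18.7% and 22.4% of all genes. In DAF 5 of 17 were lower than in WT-EF with a median of -0.22, against 10.6% of all genes.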

How the data were processed

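Total RNA from A673 cells of 7 groups of 3 libraries was sequenced as paired ends. Per the methods and the submitters' processing notes, the authors aligned reads with STAR (2.5.1b in the notes) to hg19, counted them per gene with htseq-count in intersection-strict mode, and adjusted the counts by replicate set with ComBat. Which annotation release and which strand setting they used is not given in the sources used here. The deposited raw counts per gene were used for all main results, and the deposited ComBat-adjusted counts, a signal the authors made from the raw counts, for an alternative. The deposited table of the authors' own comparisons was not used. The 5 summary lines of the count table that name no gene (left blank there) were left out.

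The edgeR (4.0.16, R 4.3.3) quasi-likelihood test was fitted on all 21 libraries with TMM scaling, group and replicate set as terms, and genes averaging 1 count per library or more. The replicate set was a term because the study ran replicate experiments and adjusted each set for batch. Deviations from the group means of same-numbered libraries correlated at a median of 0.17 (41 of 63 pairs over 0.1, range -0.21 to 0.65) and those of other pairs at -0.1 (22 of 126), over 10543 genes. Benjamini-Hochberg adjustment covered 30549 genes and calls needed an adjusted p under 0.05. CPM values are TMM-adjusted. Alternatives used DESeq2 (1.42.0), limma (3.58.1), other scalings, no filter, no replicate term, only the compared groups, a further 1.5-fold requirement, and each library left out. Scripts were tested on simulated data. Positions and exon overlaps came from GENCODE release 44 on hg19, and promoters from RefSeq on GRCh38.p14. The 40 genes, the gene lists and the tests were chosen with earlier results of these data known. Values per library were given for FBL, NCL, NPM1, DKC1, NOP56, PES1, POLR1B and UBTF, and for the called genes with the largest changes, up to 3 each way in endo-EF and WT-EF and up to 2 each way elsewhere. POLR1A, NOP2, HEATR1, LAS1L, NOC2L, BYSL and NOC4L were added after their values were seen.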

Additional observations from a re-analysis of the deposited data

How the results depend on the processing

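The number of the 40 genes called in each comparison was recomputed under each setting. With each library left out in turn it ranged from 10 to 18 in endo-EF, 11 to 16 in WT-EF against iEF, 0 to 6 in mut9, 0 to 2 in DAF, 0 to 2 in DAF-mut9 and 0 to 1 in Δ22 against iEF, 3 to 13 in WT-EF against iLuc, 9 to 16 in WT-EF against Δ22, 0 to 1 in mut9 against WT-EF, 6 to 9 in DAF against WT-EF and 0 to 1 in DAF-mut9 against mut9. WT-EF against iEF gave 11 without the second iEF library, mut9 gave 0 without the third iEF or the second mut9 library, WT-EF against Δ22 gave 9 without the third Δ22 or the first WT-EF library, and DAF against WT-EF gave 6 without the first DAF library. Without the third iLuc library NOP56 turned to -0.39 in endo-EF (adjusted p = 0.01), and over all libraries left out in turn it ranged from -0.39 to 0.33.

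Under library totals alone the counts were 32 in WT-EF and 8 in mut9 against iEF, 33 in WT-EF against Δ22, 7 and 25 in mut9 and DAF against WT-EF, and 4 in DAF-mut9 against mut9. Of all 30549 genes, 9965, 4593, 8919, 1945, 9116 and 3113 were called in these comparisons. Under ComBat-adjusted counts with limma they were, in the same order, 32, 10, 32, 8, 28 and 4. Fitted on the compared groups alone, endo-EF gave 7, mut9 1, DAF 1 and DAF-mut9 0 against iEF, mut9 against WT-EF 19 and DAF-mut9 against mut9 4. For mut9 against WT-EF that fit called 5116 of 30842 genes, where the reported fit called 1878 of 30549. With a further 1.5-fold requirement the counts were 4 in endo-EF, 5 in WT-EF, 0 in mut9, 1 in DAF and 0 in DAF-mut9 against iEF, 2 in WT-EF against iLuc, 3 in WT-EF against Δ22, 0 and 2 in mut9 and DAF against WT-EF and 0 in DAF-mut9 against mut9. RLE scaling gave 1 in DAF-mut9 against mut9, DESeq2 gave 1 in Δ22, and no low-count filter gave 2 in DAF-mut9, 2 in Δ22 and 1 in mut9 against WT-EF. With no replicate block DAF gave 1 against iEF, mut9 against WT-EF 0 and DAF-mut9 against mut9 1, and the others stayed within 1.5 times (endo-EF 12, WT-EF 14). The cause of these changes was not tested. Where 1 library was left out, the fit also had fewer libraries.

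For single genes, 3218 of the values under other settings kept their direction and side of the threshold, 195 passed only under the setting and 107 only in the reported fit. Except under the 1.5-fold requirement, 10 of the 17 WT-EF calls against iEF held under every setting (FBL, NHP2, NPM1, HEATR1, NOC2L, WDR12, LAS1L, POLR1A, POLR1B and UBTF), as did 7 of 14 in endo-EF, 3 of 5 in WT-EF against iLuc, 6 of 16 in WT-EF against Δ22, 4 of 12 in DAF against WT-EF and 0 in the mut9, DAF and DAF-mut9 comparisons against iEF, mut9 against WT-EF and DAF-mut9 against mut9. At 3 libraries a group and this depth, a gene that missed the threshold was not shown to be unchanged.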
